A study of Mus musculus with 12 samples.

Results

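The expression of 10 mouse genes of the STAT5 pathway was followed across 4 sorted bone marrow progenitor populations. They were the transcription factor genes Stat3, Stat4, Stat5a and Stat5b, the feedback inhibitor genes Cish, Socs1, Socs2 and Socs3, and the kinase genes Pim1 and Pim2. Every probe set annotated with exactly 1 of these symbols was taken, which gave 23 of the 45037 probe sets on the arrays. Socs2 had 6 of them, Stat3 had 4, Socs3 had 3, Stat5a, Stat5b and Pim1 had 2 each, and Stat4, Cish, Socs1 and Pim2 had 1 each. The study used 12 Affymetrix arrays, 3 per population, with RNA of 80000 cells per population from female C57BL/6 mice aged 4 to 6 weeks. All populations were sorted without lineage markers or Sca-1 and with CD117. Common myeloid progenitors (CMP) were gated with CD34 and without CD16/32, and the surface receptor CD27 split them into CD27+ CMP and CD27- CMP. Granulocyte-monocyte progenitors (GMP) were gated with CD34, CD16/32 and CD27, and megakaryocyte-erythrocyte progenitors (MEP) without any of them. Per the labels these are biological replicates, without word on separate mice or pools, so the p-values measure the spread between these arrays alone.

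Cytokines such as erythropoietin, interleukin-3 and granulocyte colony-stimulating factor bind receptors that carry Janus kinases (JAK). The kinases phosphorylate STAT proteins, which pair, enter the nucleus and switch on target genes. Among those targets are Cish and the Socs genes, whose products bind back to the receptor or the kinase and end the signal, and the Pim genes, which encode serine/threonine kinases that favour survival and growth of blood cells. In mouse blood formation STAT5 is known for its part in the survival of erythroid cells, and STAT3 for its part in the granulocyte response to granulocyte colony-stimulating factor.

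The values are deposited log2 values that had been centred, so that each probe set has a median of 0 over the 12 arrays. A value is a level relative to the middle of the same probe set, and levels of different genes cannot be compared. In bulk RNA, fewer cells of a type and less RNA per cell cannot be told apart. Among probe sets that spanned 1 log2 or more over the arrays, correlations between arrays of the same population ran from 0.561 to 0.914. Cd34 RNA averaged 4.10 ± 0.10 in CD27+ CMP and -3.22 ± 0.61 in CD27- CMP, 3.03 ± 0.15 in GMP and -4.91 ± 1.71 in MEP (SD, n = 3 each). It was low in CD27- CMP although their gate asks for the CD34 protein, which the arrays did not measure. The mean level of 7 erythroid markers lay between -4.55 and -3.03 in the CD27+ CMP arrays and between 2.74 and 2.84 in the CD27- CMP arrays, and all 7 were lower in CD27+ CMP. The mean of 8 granulocyte-monocyte markers lay between 2.93 and 3.45 in CD27+ CMP and between -3.44 and -2.76 in CD27- CMP, and all 8 were higher in CD27+ CMP. Between GMP and MEP the same 7 were lower and the same 8 higher. Over all genes, 20.6% passed between the CMP fractions and 21% between GMP and MEP. All 3 basophil and mast cell markers read higher in the CD27+ fraction, as did 1 of 3 mature B cell and 2 of 5 mature T and NK cell markers, and 0 of 5 mature neutrophil markers. These markers split the populations as several genes below do, and their part in those differences was not tested.

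Between CD27+ and CD27- CMP the genes went both ways. Stat3, Stat4, Socs3, Pim1 and Pim2 were higher in CD27+ CMP in at least 1 probe set, and Stat5a was lower. In probe sets, 8 of the 23 were higher and 1 was lower by limma at an adjusted p under 0.05, together 39.1% of them, against 14.1% of all probe sets tested (7.65% higher and 6.49% lower). Between GMP and MEP, Stat3, Stat4 and Pim1 were higher in 4 probe sets and Stat5a and Stat5b were lower in 4, together 34.8%, against 14.8% of all probe sets (7.54% higher and 7.27% lower). The median difference over the 23 probe sets was 0.05 log2 between the CMP fractions and -0.02 between GMP and MEP, beside -0.02 and -0.04 over all probe sets. Of the 23, 6 had a range under 0.5 log2 over the arrays, namely 4 for Socs2, the single probe set for Socs1 and 1 for Stat3. They read between -0.12 and 0.16 on every array, and nothing is said about their level.

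Between populations of the same CD27 status few of the probe sets passed. Against GMP, CD27+ CMP were higher in 1 probe set each of Stat3, Stat5a and Stat5b, 13% of the 23, and lower in 0, while 3.04% of all probe sets passed (1.47% higher and 1.57% lower). The 3 calls fell to 0 without MEP replicate 1, GMP replicate 1 or 2 or CD27+ CMP replicate 3, and to 1 without MEP replicate 2, CD27+ CMP replicate 1 or 2 or CD27- CMP replicate 1. The median difference there was 0.48 log2 over the 23 and -0.01 over all probe sets. Between CD27- CMP and MEP, 0 of the 23 passed in limma and 2 had an unadjusted p under 0.05. The smallest adjusted p was 0.69, and 0.0444% of all probe sets passed in that comparison.

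**Figure D1:**
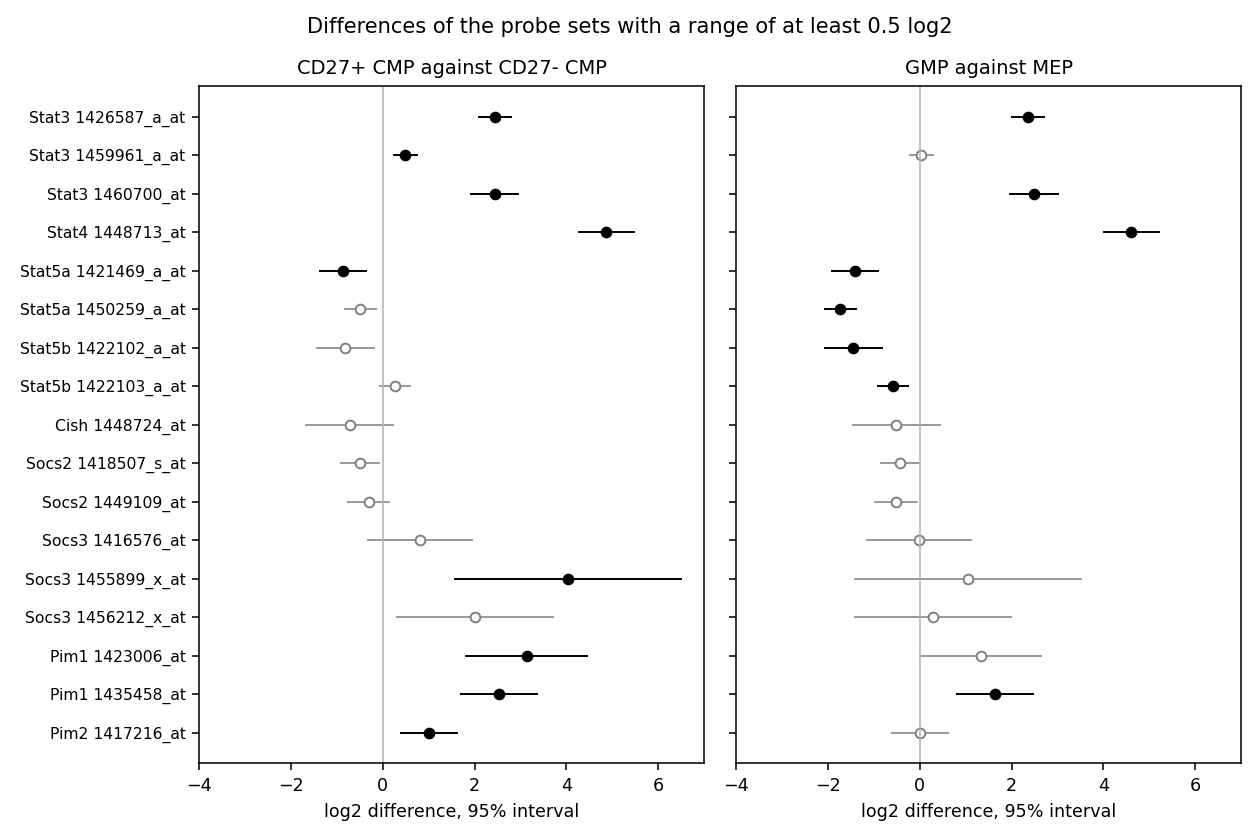
Log2 differences (horizontal axis) of the 17 probe sets that spanned 0.5 log2 or more, for CD27+ CMP against CD27- CMP and for GMP against MEP. Points are limma estimates, lines are 95% confidence intervals, and filled points passed an adjusted p under 0.05; Stat4 stands at 4.87 and 4.61, and both probe sets of Stat5a lie below 0 in both comparisons.

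Stat4, which encodes the STAT protein best known from interleukin-12 signalling in T cells and NK cells, gave the largest log2 differences of the 10 genes in both comparisons. Its probe set 1448713_at read 2.87, 2.37 and 2.44 in CD27+ CMP and -2.40, -2.50 and -2.01 in CD27- CMP. In GMP it read 2.22, 1.92 and 2.02, and in MEP -2.95, -2.79 and -1.92. The 6 CD27+ CMP and GMP arrays all lay above the 6 CD27- CMP and MEP arrays, with no overlap. The difference was 4.87 log2 or 29.1-fold between CD27+ and CD27- CMP (SE 0.26, adjusted p = 2.1e-06). Between GMP and MEP it was 4.61 log2 or 24.4-fold (SE 0.26, adjusted p = 2.4e-06). In order of level CD27+ CMP (2.56 ± 0.27) came before GMP (2.06 ± 0.15), CD27- CMP (-2.31 ± 0.26) and MEP (-2.55 ± 0.55; SD, n = 3 each). The 3 CD27+ CMP arrays lay above the 3 GMP arrays, but the difference of 0.50 did not pass (adjusted p = 0.68), and CD27- CMP and MEP overlapped. The CMP difference exceeded the GMP to MEP difference by 0.26 log2, with a 95% interval from -0.59 to 1.10.

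Stat3, which encodes the main STAT protein downstream of the receptors for interleukin-6 and granulocyte colony-stimulating factor, was also higher in CD27+ CMP and GMP. Its probe set 1426587_a_at, where the suffix marks alternative transcripts of 1 gene, read 1.44, 1.52 and 1.28 in CD27+ CMP and -0.77, -1.06 and -1.25 in CD27- CMP. It read 0.77, 1.09 and 0.94 in GMP, and -1.69, -1.37 and -1.20 in MEP. Every array of CD27+ CMP and GMP again lay above every array of CD27- CMP and MEP. CD27+ CMP exceeded CD27- CMP by 2.44 log2, or 5.44-fold (SE 0.16, adjusted p = 5.7e-06), while GMP exceeded MEP by 2.35 (SE 0.16, adjusted p = 6e-06). A second probe set, 1460700_at, gave 2.44 and 2.49 in the same comparisons, with adjusted p = 7e-05 and adjusted p = 5.4e-05. The probe set 1459961_a_at gave another pattern. It read 0.66, 0.32 and 0.45 in CD27+ CMP and between -0.24 and 0.15 on all other arrays, and it differed by 0.49 between CD27+ and CD27- CMP (SE 0.11, adjusted p = 0.017) and by 0.03 between GMP and MEP. Without replicate 1 of CD27+ CMP that first difference was 0.40 (adjusted p = 0.06). It was also the Stat3 probe set that passed between CD27+ CMP and GMP, at 0.51 (SE 0.11, adjusted p = 0.049). That call was lost under 16 of 20 alternatives, 10 of them with a single array of any population left out, and its adjusted p reached 0.26 when only the 6 arrays compared were fitted. For the probe sets 1426587_a_at and 1460700_at the 3 CD27+ CMP arrays lay above the 3 GMP arrays, yet the differences of 0.48 and 0.36 did not pass.

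**Figure D2:**
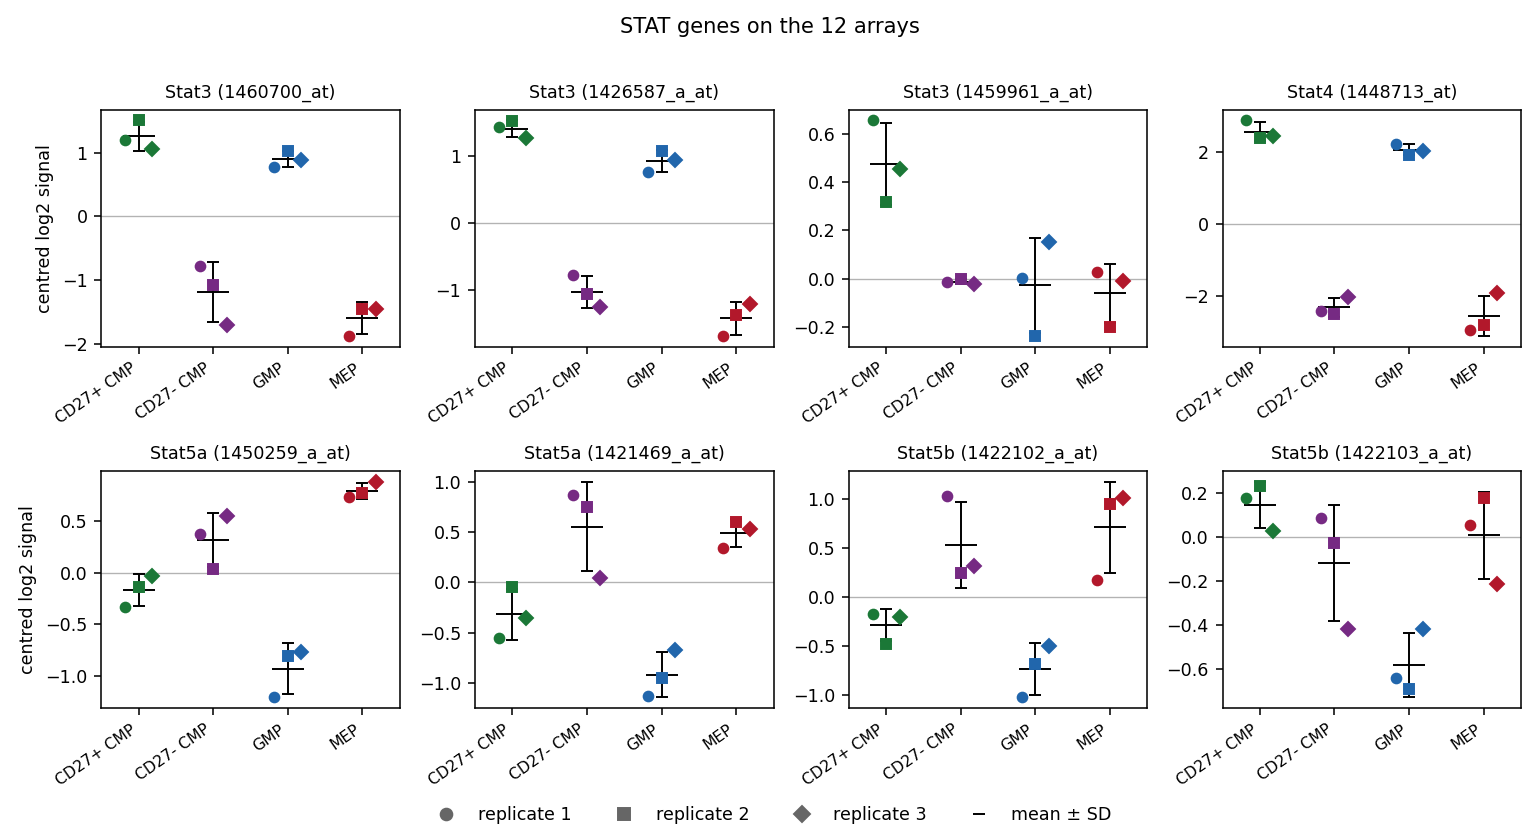
Centred log2 signal (vertical axis) of the 8 probe sets of STAT genes that spanned 0.5 log2 or more, on the 12 arrays, by population, with the replicate number as the symbol and mean ± SD as bars. For Stat4 and for Stat3 1426587_a_at and 1460700_at the CD27+ CMP and GMP arrays lie above the other 6 arrays, and for both Stat5a probe sets the 3 GMP arrays lie below all others.

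Stat5a and Stat5b encode 2 closely related STAT proteins that act below the erythropoietin, interleukin-3 and prolactin receptors, and in mice their loss together impairs red cell formation. In 3 of their 4 probe sets the mean was lowest in GMP and highest in MEP or CD27- CMP. The Stat5a probe set 1450259_a_at read -0.33, -0.14 and -0.03 in CD27+ CMP and 0.37, 0.03 and 0.55 in CD27- CMP. It read -1.21, -0.81 and -0.78 in GMP, and 0.73, 0.77 and 0.88 in MEP. No 2 populations overlapped, and in order of level MEP (0.79 ± 0.08) came before CD27- CMP (0.32 ± 0.26), CD27+ CMP (-0.17 ± 0.15) and GMP (-0.93 ± 0.24; SD, n = 3 each). GMP fell below MEP by 1.72 log2, 3.31-fold (SE 0.15, adjusted p = 4.3e-05). Neighbours in that order were less clear. MEP and CD27- CMP did not pass (log2 -0.48 for CD27- CMP against MEP, adjusted p = 0.69), nor did the CMP fractions (-0.49, adjusted p = 0.073), while CD27+ CMP exceeded GMP by 0.76 (SE 0.15, adjusted p = 0.03). The call against GMP was lost without MEP replicate 1 or 2, GMP replicate 1 or 2, CD27+ CMP replicate 2 or 3, or CD27- CMP replicate 1, with differences from 0.62 to 0.82 and the adjusted p reaching 0.12.

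The second Stat5a probe set, 1421469_a_at, read -0.55, -0.04 and -0.36 in CD27+ CMP and 0.87, 0.75 and 0.04 in CD27- CMP. It read -1.12, -0.95 and -0.68 in GMP, and 0.34, 0.60 and 0.53 in MEP. GMP lay below all other arrays, and CD27- CMP and MEP overlapped. Relative to CD27- CMP, the CD27+ fraction fell by 0.87 (SE 0.22, adjusted p = 0.029), and GMP fell below MEP by 1.41 (SE 0.22, adjusted p = 0.0019). The CMP call was lost without CD27+ CMP replicate 1 (-0.76, adjusted p = 0.11) or 3 (-0.85, adjusted p = 0.089), and without CD27- CMP replicate 1 (-0.71, adjusted p = 0.1) or 2 (-0.77, adjusted p = 0.1). The Stat5b probe set 1422102_a_at read -0.17, -0.47 and -0.20 in CD27+ CMP and 1.03, 0.24 and 0.32 in CD27- CMP. It read -1.02, -0.69 and -0.50 in GMP, and 0.17, 0.95 and 1.01 in MEP. CD27+ CMP arrays lay below CD27- CMP arrays without overlap, and so did GMP below MEP. The GMP to MEP difference of -1.45 passed (SE 0.27, adjusted p = 0.0057), and the CMP difference of -0.81 did not (SE 0.27, adjusted p = 0.094).

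The other Stat5b probe set, 1422103_a_at, was lowest in GMP at -0.64, -0.69 and -0.42, against 0.05, 0.18 and -0.21 in MEP. It fell by 0.59 log2 in GMP relative to MEP (SE 0.15, adjusted p = 0.023) and was higher by 0.73 in CD27+ CMP than in GMP (SE 0.15, adjusted p = 0.03). The first call was lost without MEP or GMP replicate 1 or 2, at -0.57 to -0.50 (largest adjusted p = 0.091). The second was lost without MEP replicate 1, GMP replicate 1 or 2, or any CD27+ CMP array, at 0.67 to 0.79 (largest adjusted p = 0.12). Between CD27+ and CD27- CMP it differed by 0.26, opposite in sign to the other 3 Stat5a and Stat5b probe sets, and did not pass (adjusted p = 0.35). Stat5b, Stat5a and Stat3 follow each other on mouse chromosome 11 in the RefSeq annotation, with no other protein-coding gene between them. Stat5a and Stat5b are close copies, and whether the probes of these 4 probe sets tell them apart was not tested.

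The feedback inhibitors of the SOCS family carry an SH2 domain that docks on phosphorylated receptors or kinases, and several are switched on by STAT proteins. STAT dimers bind the palindrome TTCNNNGAA, which reads the same on both strands. It was searched in RefSeq promoters of the mouse build GRCm38.p6, from 250 bases before to 50 bases after each gene's start, of which 13 belonged to 9 of the 10 genes. Socs2 had no promoter entry and was not searched. The palindrome stood in the promoters of Cish and Socs3 and in none of the others searched. By promoter, 8.30% of all 32851 of that length hold it, and by gene, 2582 of 27025 have a promoter with it. TTC and GAA with a spacer of 4 bases, also a palindrome, stood in none of the 13, against 6.95% of all promoters. The stretches around the matches are shown, 5′ to 3′, because these are the genes of the family with a match, and capitals mark the palindrome. A match is a run of letters and not a measured binding site. Cish lies at chr9:107296409-107296678 on the + strand, up to 20 bases past the start, with its first match at the start itself and the second 11 bases after it. Socs3 lies at chr11:117969367-117969616 on the - strand and ends at the start, with its match beginning at position -154 relative to it.
Cish: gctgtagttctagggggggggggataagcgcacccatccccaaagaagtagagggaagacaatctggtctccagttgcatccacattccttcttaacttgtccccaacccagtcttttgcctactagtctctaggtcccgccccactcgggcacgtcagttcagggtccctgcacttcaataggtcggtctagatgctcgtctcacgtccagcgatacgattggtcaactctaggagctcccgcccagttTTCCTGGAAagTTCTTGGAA
Socs3: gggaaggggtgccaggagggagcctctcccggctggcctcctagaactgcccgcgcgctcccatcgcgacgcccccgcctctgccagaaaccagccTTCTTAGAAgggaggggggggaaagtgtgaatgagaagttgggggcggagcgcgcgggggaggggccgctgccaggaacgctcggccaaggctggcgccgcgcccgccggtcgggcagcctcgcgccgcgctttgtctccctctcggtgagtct

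Cish, whose product CIS is a textbook STAT5 feedback inhibitor, did not pass in any comparison. It read -0.37, 0.34 and 0.00 in CD27+ CMP and 0.53, 1.60 and 0.00 in CD27- CMP. It read -0.79, -0.48 and -0.10 in GMP, and -0.56, 0.31 and 0.40 in MEP. The highest value was CD27- CMP replicate 2, and all neighbouring populations overlapped. The difference was -0.72 log2 between CD27+ and CD27- CMP (SE 0.42, adjusted p = 0.38), -0.51 between GMP and MEP (adjusted p = 0.44) and 1.17 between CD27- CMP and GMP (adjusted p = 0.12). Socs2, an inhibitor best known from growth hormone signalling, spanned 0.5 log2 or more in 2 of its 6 probe sets. The probe set 1418507_s_at, whose suffix marks probes shared by several transcripts, read -0.07, 0.01 and -0.02 in CD27+ CMP and 0.62, 0.00 and 0.80 in CD27- CMP. It read -0.25, -0.15 and -0.23 in GMP, and 0.37, 0.28 and 0.00 in MEP, so that GMP lay below every other array. CD27- CMP exceeded GMP by 0.68 (SE 0.18, adjusted p = 0.034). This call was kept in 8 of 21 alternatives and was lost without MEP replicate 2, any GMP array, any CD27+ CMP array, or CD27- CMP replicate 1 or 3, at 0.52 to 0.71 (largest adjusted p = 0.11 among these). Between CD27+ and CD27- CMP (-0.50, adjusted p = 0.12) and between GMP and MEP (-0.43, adjusted p = 0.19) Socs2 did not pass. The probe set 1449109_at read between -0.45 and -0.12 in GMP and 0.82 at most, in CD27- CMP replicate 3, and passed in no comparison.

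Socs3, the inhibitor of interleukin-6 and granulocyte colony-stimulating factor signalling, differed between the CMP fractions in 1 of its 3 probe sets, with a wide spread between arrays. Its probe set 1455899_x_at, whose suffix marks probes that resemble other sequences, read 2.18, 6.10 and 3.60 in CD27+ CMP and 0.00, -0.01 and -0.19 in CD27- CMP. It read -0.13, 3.38 and -0.02 in GMP, and 0.12, 0.00 and -0.03 in MEP. All 3 CD27+ CMP arrays lay above CD27- CMP and MEP, while replicate 2 of GMP lay within the CD27+ CMP range and the other 2 GMP arrays near 0. The CMP difference was 4.03 log2 (SE 1.09, adjusted p = 0.037), and that between GMP and MEP was 1.04 (SE 1.09, adjusted p = 0.51). Set against GMP, CD27+ CMP differed by 2.88, which did not pass (SE 1.09, adjusted p = 0.33). The CMP call was lost without any single MEP array (4.03, largest adjusted p = 0.06), without any single CD27- CMP array (3.97 to 4.06, largest adjusted p = 0.094), and without CD27+ CMP replicate 2 (2.96, adjusted p = 0.098) or 3 (4.21, adjusted p = 0.083). When the arrays numbered 2 of CD27+ CMP and GMP were both left out, a choice made after their values were seen, the CMP difference was 2.96 (adjusted p = 0.0016), that between GMP and MEP -0.11 (adjusted p = 0.82), and that between CD27+ CMP and GMP 2.96 (adjusted p = 0.013). The difference from GMP stayed short of the threshold in the other 20 of 21 alternatives. The probe set 1456212_x_at read 0.69, 3.93 and 1.42 in CD27+ CMP and -0.02, 0.37 and -0.31 in CD27- CMP, a difference of 2.00 that did not pass (adjusted p = 0.14). The probe set 1416576_at read 2.30 in CD27+ CMP replicate 2 and between -0.04 and 0.06 on the other 11 arrays. Against GMP these 2 probe sets differed by 1.74 (adjusted p = 0.47) and 0.81 (adjusted p = 0.85), and neither passed.

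Pim1, a STAT target that encodes a survival kinase, was higher in CD27+ CMP in both of its probe sets. The probe set 1435458_at read 1.85, 2.50 and 1.48 in CD27+ CMP and -0.44, -0.38 and -0.95 in CD27- CMP. It read 0.67, 1.74 and 0.38 in GMP, and -0.72, -0.61 and -0.81 in MEP. CD27+ CMP and GMP lay above CD27- CMP and MEP on every array, and GMP replicate 2 reached into the CD27+ CMP range. CD27+ CMP exceeded CD27- CMP by 2.53 log2 or 5.79-fold (SE 0.36, adjusted p = 0.0011), and GMP stood above MEP by 1.65 (SE 0.36, adjusted p = 0.013). In order of level CD27+ CMP (1.94 ± 0.52) came before GMP (0.93 ± 0.72), CD27- CMP (-0.59 ± 0.32) and MEP (-0.71 ± 0.10; SD, n = 3 each), with 1.01 between CD27+ CMP and GMP (adjusted p = 0.29) and 0.12 between CD27- CMP and MEP not passing. The probe set 1423006_at read 2.27, 2.92 and 1.47 in CD27+ CMP and -0.71, -0.40 and -1.62 in CD27- CMP, a difference of 3.13 (SE 0.58, adjusted p = 0.0055). It read 0.56, 2.31 and 0.13 in GMP, and -0.13, -0.43 and -0.44 in MEP, and the difference of 1.33 did not pass (SE 0.58, adjusted p = 0.2), or 0.67 without GMP replicate 2. Pim2, which encodes a related kinase, read 0.74, 1.54 and 0.39 in CD27+ CMP and 0.14, -0.23 and -0.26 in CD27- CMP. All 9 arrays outside CD27+ CMP lay between -0.26 and 0.21, below the 3 CD27+ CMP arrays. The CD27+ fraction exceeded CD27- CMP by 1.01 (SE 0.27, adjusted p = 0.035), and the difference between GMP and MEP was 0.00, with a 95% interval from -0.61 to 0.61. Its CMP call was lost without MEP replicate 1 or 2, GMP replicate 1 or 2, CD27+ CMP replicate 1, or CD27- CMP replicate 2 or 3, at 0.94 to 1.09 (largest adjusted p = 0.11).

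Replicate 2 was the highest array of its population in both CD27+ CMP and GMP for Pim1 and for the Socs3 probe set 1455899_x_at. The same held for Il4ra, the interleukin-4 receptor gene, at 2.89, 4.05 and 3.06 in CD27+ CMP and 1.72, 2.45 and 1.96 in GMP, a gene chosen here after its values were seen. How many other genes share this order was not counted. Immediate early genes, which answer to handling stress within minutes, were read as a further list, also chosen after the values were seen. The mean of 11 such genes was 1.18, 0.98 and 0.64 in CD27+ CMP and -0.05, -0.51 and -0.40 in CD27- CMP. It was 0.96, 0.51 and 0.45 in GMP, and -0.48, -0.39 and -0.48 in MEP. Replicate 1 was the highest array in CD27+ CMP, CD27- CMP and GMP, and replicate 2 in MEP. Of the 11, 6 were higher and 1 lower in CD27+ CMP against CD27- CMP, and 4 were higher and 1 lower in GMP than in MEP, where 20.6% and 21% of all genes passed. Their part in the Socs3 and Pim differences was not tested.

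**Figure D3:**
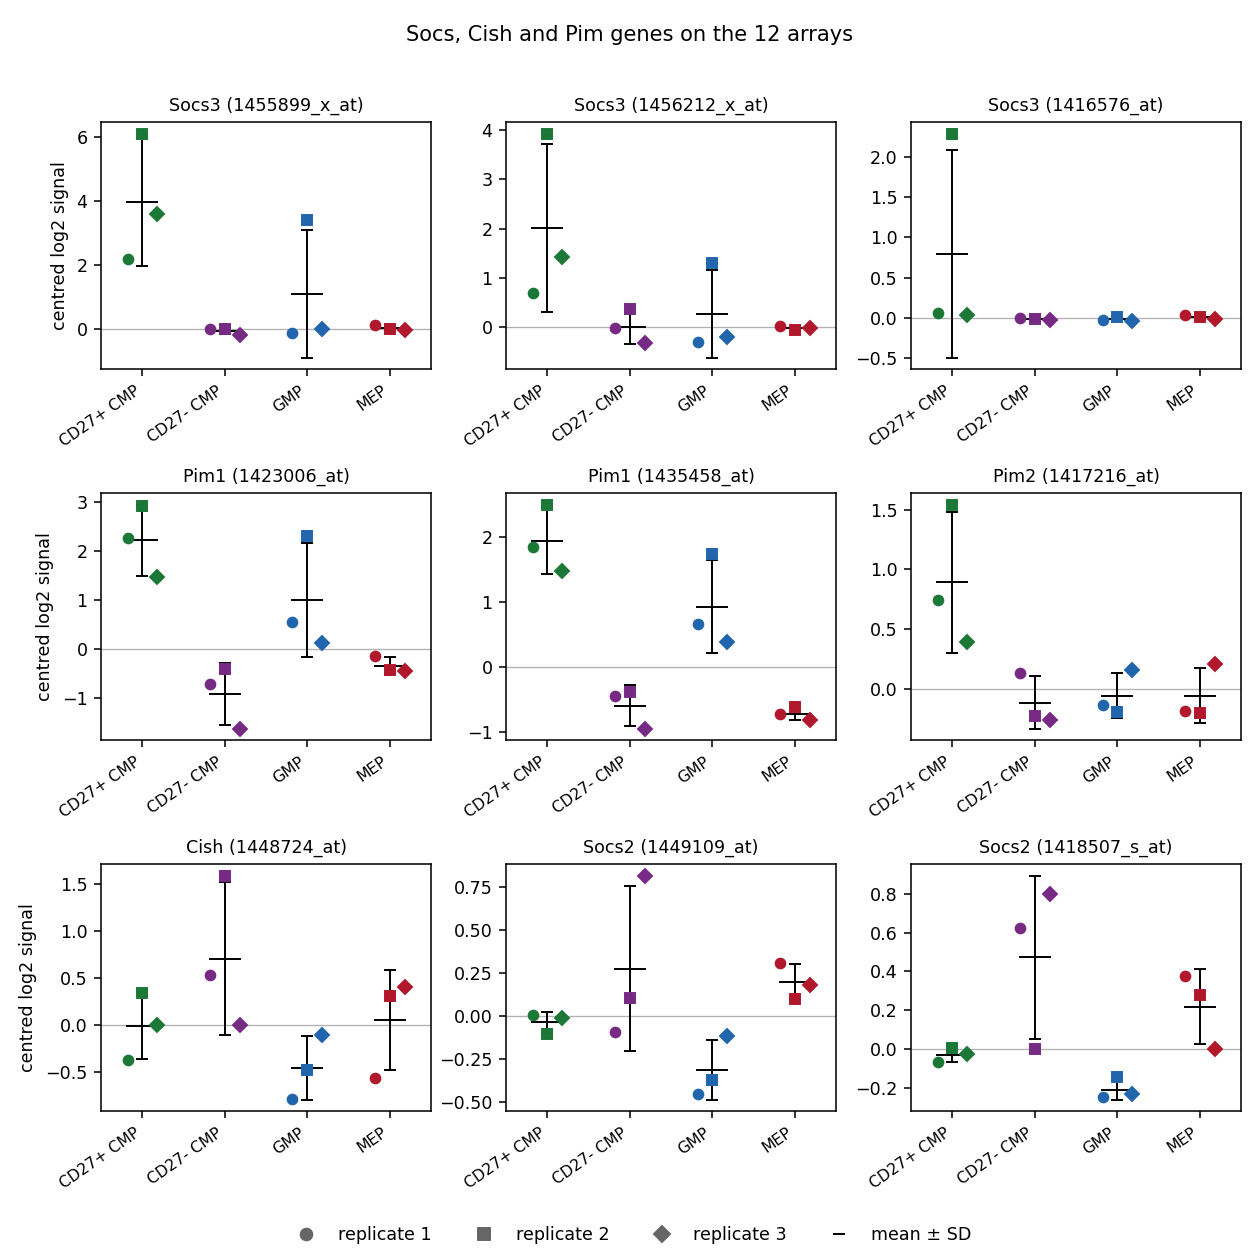
Centred log2 signal (vertical axis) of 9 probe sets of Socs3, Pim1, Pim2, Cish and Socs2 on the 12 arrays, by population, with the replicate number as the symbol and mean ± SD as bars. Replicate 2 is the highest CD27+ CMP array for Socs3, Pim1 and Pim2, and for Socs3 1455899_x_at the GMP array numbered 2 stands at 3.38 while the other 2 lie near 0.

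The remaining comparisons set populations of different CD27 status and gate against each other and reuse the same arrays. Against MEP, CD27+ CMP were higher in 8 probe sets and lower in 3, together 47.8% of the 23, with 16% of all probe sets past the threshold (7.67% higher and 8.34% lower). The count of 11 fell to 6 without MEP replicate 2 and to 7 without CD27+ CMP replicate 2. Stat4 differed by 5.11 log2 (adjusted p = 1.3e-06), Stat3 by 2.84 in 1426587_a_at (adjusted p = 1.9e-06) and Pim1 by 2.66 in 1435458_at (adjusted p = 0.00074), while Stat5a fell by 0.96 in 1450259_a_at (adjusted p = 0.0019). Against GMP, CD27- CMP were higher in 4 probe sets and lower in 4, together 34.8%, with 14.2% of all probe sets past it (6.3% higher and 7.9% lower). Stat5a was higher in CD27- CMP by 1.25 in 1450259_a_at (adjusted p = 0.00041) and by 1.47 in 1421469_a_at (adjusted p = 0.0016), and Stat4 was lower by 4.36 (adjusted p = 3.7e-06). The test of whether the CD27+ to CD27- difference within CMP equals that between GMP and MEP passed for 1 of the 23, Stat5a in 1450259_a_at, with 1.1% of all probe sets past it. That departure was 1.24 (SE 0.22, adjusted p = 0.032), and it no longer passed without MEP replicate 1, 2 or 3, GMP replicate 1 or 2, CD27+ CMP replicate 2 or 3, or CD27- CMP replicate 1 or 2, at 1.10 to 1.30. For Stat3 in 1426587_a_at the differences departed by 0.09 log2, with a 95% interval from -0.41 to 0.59, and for Pim2 they departed by 1.01 (adjusted p = 0.56).

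Receptors that signal through JAK and STAT also differed between these populations. Each gene was read by its most variable probe set, with 18 of 21 listed genes measured. Between CD27+ and CD27- CMP 10 were higher and 2 lower, with a median difference of 1.15 log2, and between GMP and MEP 9 were higher and 1 lower, with a median of 0.85. Over all 18193 genes 20.6% passed in the first comparison (11.3% higher and 9.31% lower, median -0.03) and 21% in the second (11% higher and 10.1% lower, median -0.04). Csf2rb, the shared beta chain of the interleukin-3, interleukin-5 and granulocyte-macrophage colony-stimulating factor receptors, differed by 6.86 and 7.98 in these comparisons (adjusted p = 1.2e-05 and adjusted p = 3.7e-06). Il6ra and Il6st, the chains of the interleukin-6 receptor that feeds STAT3, differed by 6.21 and 6.13 between the CMP fractions and by 5.74 and 4.59 between GMP and MEP. Csf3r, the granulocyte colony-stimulating factor receptor gene, differed by 5.08 and 5.71. Epor, the erythropoietin receptor gene that feeds STAT5, ran the other way. It read -2.93, -3.50 and -3.75 in CD27+ CMP and 3.59, 3.07 and 2.93 in CD27- CMP, and it fell by 6.59 in CD27+ CMP (adjusted p = 1.4e-06) and by 7.04 in GMP relative to MEP (adjusted p = 7.6e-07). Epor also stands in the erythroid marker list. Ifngr1, a chain of the interferon gamma receptor, fell by 1.30 in CD27+ relative to CD27- CMP (adjusted p = 0.0012) and by 1.71 relative to GMP (adjusted p = 0.0014). Il6st was higher in CD27+ CMP than in GMP by 1.39 (adjusted p = 0.0016), and Il7r, the interleukin-7 receptor gene of lymphoid precursors, by 0.51 (adjusted p = 0.011). Without CD27+ CMP replicate 3 that Il7r difference was 0.48 and no longer passed. With only the arrays compared in the limma fit, none of these 3 genes passed against GMP. The adjusted p was then 0.054 for Ifngr1, 0.068 for Il6st and 0.16 for Il7r.

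Of the 4 Janus kinase genes, Jak3, whose product serves receptors with the common gamma chain, stood higher in the CD27+ fraction of CMP, and Jak1 was lower in GMP than in MEP. Jak3 read 0.88, 2.51 and 1.75 in CD27+ CMP and -0.14, -0.81 and -0.36 in CD27- CMP, a difference of 2.15 (SE 0.56, adjusted p = 0.032). That call was kept in 12 of 21 alternatives and was lost without MEP replicate 2, GMP replicate 2, CD27+ CMP replicate 2 or 3, or any CD27- CMP array, at 1.75 to 2.30 (largest adjusted p = 0.11 among these). Jak1 read -0.39, -0.50 and -0.65 in GMP and 0.45, 0.77 and 0.49 in MEP, a difference of -1.08 (SE 0.12, adjusted p = 0.00025), while the CMP fractions differed by 0.03. Jak2, the kinase of the erythropoietin receptor, did not pass in its most variable probe set (-0.65 for CD27+ against CD27- CMP, adjusted p = 0.38, and -0.85 for GMP against MEP, adjusted p = 0.21). Its other probe set, 1421066_at, was lower in both, by -1.14 (adjusted p = 0.015) and -0.89 (adjusted p = 0.045). Among the other family members Stat2, Stat6, Socs4, Socs5, Socs7 and Pim3 passed in no comparison, and Socs6 was lower in CD27- CMP than in GMP (-1.27, adjusted p = 0.0033).

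Of 11 phosphatase, PIAS and adaptor genes listed as restraining the pathway, 4 were higher and 0 lower in CD27+ CMP against CD27- CMP, with a median of 0.74. The same 4 were higher and 0 lower in GMP than in MEP, with a median of 0.64. They were Ptprc, which encodes the leukocyte phosphatase CD45 (2.55 and 2.37), Sh2b3, which encodes the adaptor LNK that holds JAK2 back (2.20 and 1.42), the ubiquitin ligase gene Cbl (2.26 and 2.16) and Ptpn6, which encodes the phosphatase SHP-1 (0.97 and 0.80). The largest adjusted p of these 8 differences was 0.0068. Over all genes 20.6% passed between the CMP fractions (11.3% higher and 9.31% lower, median -0.03). Between GMP and MEP 21% did (11% higher and 10.1% lower, median -0.04). Of 16 textbook STAT5 or STAT3 targets outside the 10 genes, 6 were higher and 0 lower in CD27+ CMP against CD27- CMP, with a median of 0.35, and the same 6 were higher and 1 lower in GMP than in MEP, with a median of 0.23. The shares over all genes were those just given. The list of targets does not state which of STAT5 and STAT3 acts on each gene, or whether the gene is raised or lowered. The transcription factor gene Nfil3 (5.41 and 4.84), the survival gene Bcl2 (4.78 and 4.13), the repressor gene Bcl6 (3.25 and 2.70), Id1 (1.45 and 4.13), Ccnd1 (2.83 and 1.01) and Ccnd2 (1.19 and 1.24), which encode cyclins of the G1 phase, were higher, and Ccnd3 (-1.12 in GMP) was the one lower. Without GMP replicate 1 or MEP replicate 1 or 2 the GMP to MEP difference of Ccnd1 was 0.79 to 1.04 and did not pass, and that of Ccnd3 was -1.12 to -0.91 and did not pass without MEP replicate 1 or 2 or GMP replicate 2 or 3. Bcl2l1 (0.48 and 0.36), Mcl1 (0.23 and 0.10) and Myc (-0.12 and -0.37) were among the listed targets that did not pass in either comparison.

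Within the same CD27 status, Nfil3 (0.54), Ccnd1 (1.70) and Bcl2 (1.68) were higher in CD27+ CMP than in GMP and Id1 was lower (-2.78, adjusted p = 5.5e-05), out of 16 targets and with 4.52% of all genes past the threshold (2.27% higher and 2.25% lower). The Bcl2 call (adjusted p = 0.049) was kept in 5 of 21 alternatives and was lost with any single array left out except MEP replicate 1 and CD27+ CMP replicate 2, at 1.51 to 1.81 (largest adjusted p = 0.18). With the replicate number as a block it was 1.68 (adjusted p = 0.061). With only the arrays compared in the limma fit, Nfil3 (adjusted p = 0.11) and Ccnd1 (adjusted p = 0.061) no longer passed against GMP either. Id1 passed in all 21 alternatives. None of the receptor, kinase, restraint and target genes listed passed between CD27- CMP and MEP, where 0.033% of all genes did. The CMP difference departed from that between GMP and MEP for Il6st (by 1.55, adjusted p = 0.014), Id1 (by -2.68, adjusted p = 0.0014), Jak1 (by 1.11, adjusted p = 0.021), Ifngr1 (by -1.61, adjusted p = 0.026) and Ccnd1 (by 1.82, adjusted p = 0.048), with 1.66% of all genes past the threshold. Only the calls for Il6st and Id1 passed in all 20 alternatives run. That for Jak1 was lost without GMP replicate 2 or CD27- CMP replicate 1 or 2 (1.06 to 1.12). That for Ifngr1 was lost without MEP replicate 2 or 3, GMP replicate 1 or 2, CD27+ CMP replicate 2 or any CD27- CMP array (-1.64 to -1.50), and that for Ccnd1 with any array left out except GMP replicate 1 and CD27- CMP replicate 2 (1.67 to 1.96).

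**Figure D4:**
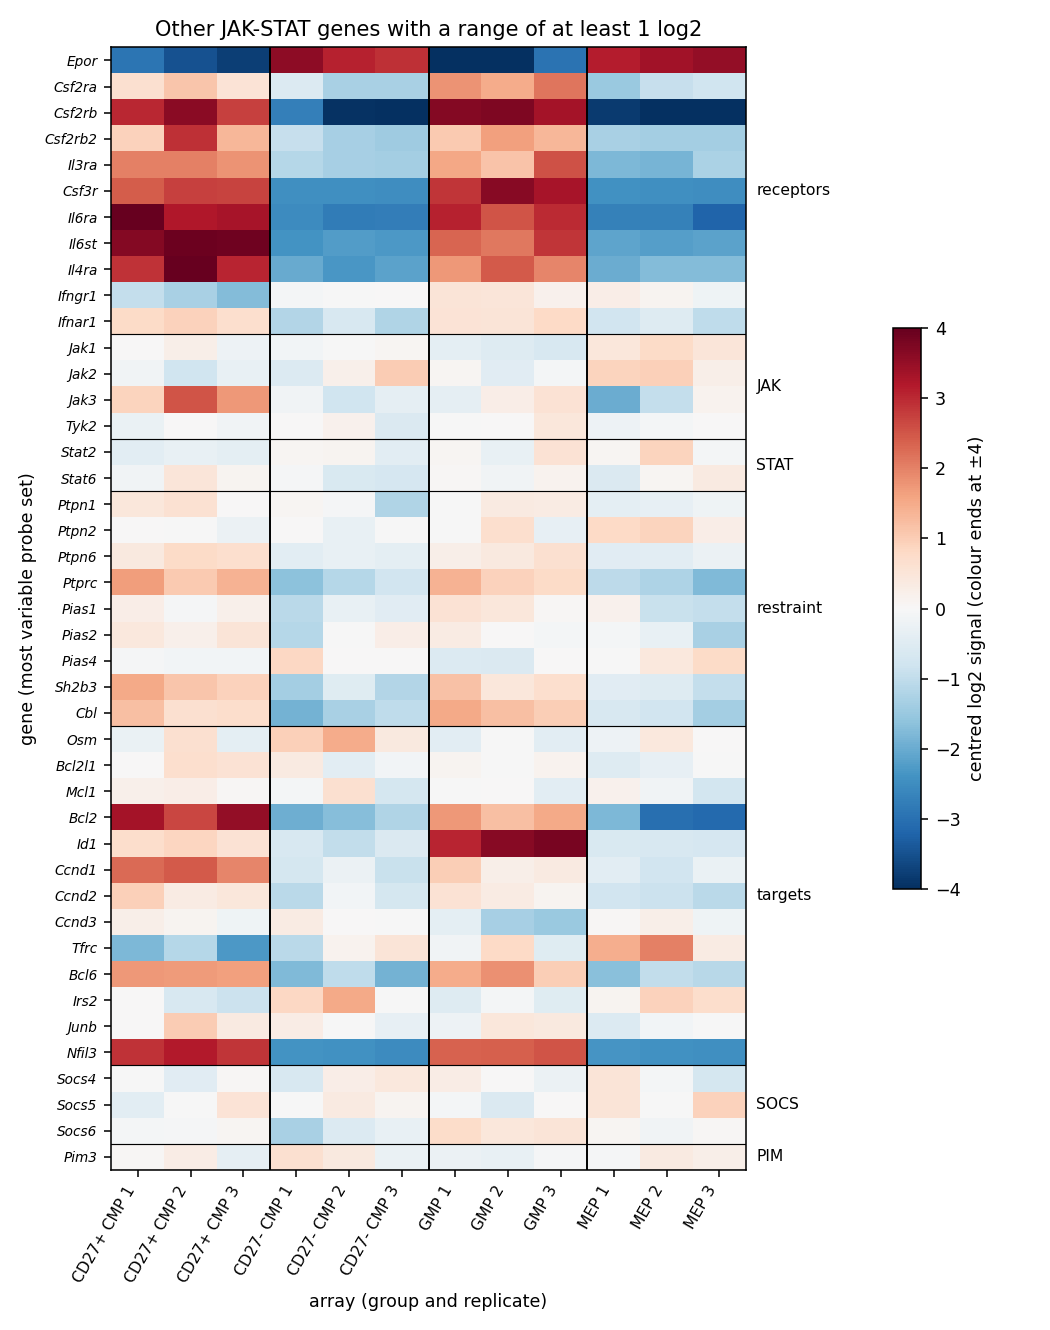
Centred log2 signal (colour, ending at 4 on either side of 0) of the 43 other JAK-STAT genes that spanned 1 log2 or more, with genes in rows by role and the 12 arrays in columns. Csf2rb, Csf3r, Il6ra, Il6st, Nfil3 and Bcl2 are red in CD27+ CMP and GMP and blue in CD27- CMP and MEP, and Epor is the reverse.

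The genes whose levels over the 12 arrays were most like those of each member were found by Pearson's r over 8017 other named genes that spanned 1 log2 or more, as a description in which all genes share the same arrays. Stat3 was most like Sh2b2 (r = 0.992), an adaptor gene of the LNK family, then Plcg2 (0.992) and Mapkapk2 (0.991). Stat4 was most like Themis2 (0.995), Rgs19 (0.994) and Fkbp1a, Stat5a like Plaat3 (0.972), Rbm43 (0.967) and Tspan13 (0.962), and Stat5b like Dhrs11 (0.964), Ppm1g (0.952) and Dvl1 (0.952). Pim1 was most like Fads6 (0.950), Dusp22 (0.949) and Ncs1, and Socs3 like Frmd6 (0.959), Fads6 (0.928) and Maged1 (0.921). Cish and Socs2 had lower best values, with Mrps21 (0.915) for Cish and Rab27b (0.895) for Socs2, and Pim2 was most like Kcna3 (0.950).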

How the data were processed

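Gene expression of 4 progenitor populations was measured on 12 Affymetrix mouse arrays. Per the submitters' processing notes the deposited values come from GCRMA, whose version and logarithm base the sources used here do not state. The deposited values were read as log2, since GCRMA gives log2 values. Every probe set's median over the arrays lay within 5e-07 of 0, so absolute signal is lost, and array medians ran from -0.0267 to 0.0549. The annotation gave 34945 probe sets a single symbol, 932 several and 9160 none, and 34741 matched the RefSeq table of GRCm38.p6, with 0 symbols changed.

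All 45037 probe sets were fitted in limma 3.58.1 (R 4.3.3) with 1 mean per population, contrasts and default empirical Bayes moderation (prior degrees of freedom 0.992). Tests were two-sided, adjusted by Benjamini-Hochberg over all probe sets and called at an adjusted p under 0.05. The code was tested on simulated data. The number of arrays limits precision: over all probe sets the median SE of the CMP difference was 0.0904 log2, and 90% of the SEs were at most 0.326. Other genes came from lists of receptors, kinases, STAT, SOCS and Pim genes, restraining factors, targets and cell type markers, read by the probe set with the largest SD; every probe set of the 10 genes could be named, and the 3 genes most like each. Members and lists were chosen with earlier results of these data known, and the immediate early list after seeing the values. Some listed genes are not reported here. Alternatives covered normalization, centring, array weights, moderation, a range filter, the replicate number as a block, 1 probe set a gene, the arrays fitted and each array left out. Replicate numbers were checked by correlating the deviations of same-numbered arrays from their group means. All 3 pairs exceeded 0.1 for CD27+ CMP with GMP (0.226 to 0.572) and for GMP with MEP (0.275 to 0.576). In the other 4 pairs of populations at most 2 of 3 did. The labels state no pairing, and arrays of different numbers were not correlated in this way. The check therefore cannot tell whether the numbers pair the arrays.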

Additional observations from a re-analysis of the deposited data

Results flagged for a closer look

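The Stat5a probe set 1450259_a_at had a difference between CD27+ and CD27- CMP (log2 -0.49) that departed from the difference between GMP and MEP (-1.72). The test of that departure, (CD27+ CMP minus CD27- CMP) minus (GMP minus MEP), gave 1.24 (SE 0.22, adjusted p = 0.032 by limma, n = 3 arrays per population). It kept its sign in every alternative run, and its adjusted p was over 0.05 without MEP replicate 1, 2 or 3, GMP replicate 1 or 2, CD27+ CMP replicate 2 or 3, or CD27- CMP replicate 1 or 2 (1.10 to 1.30, largest adjusted p = 0.088). It was 1.22 (adjusted p = 0.052) with arrays centred on their median. The second Stat5a probe set gave 0.54 (adjusted p = 0.99), and Stat5b gave 0.85 in 1422103_a_at (adjusted p = 0.14).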

How the results depend on the processing

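Of 119 differences followed in the 17 member probe sets that spanned 0.5 log2 or more, 40 passed the threshold, 23 of them in every alternative run, and 0 of the 40 changed sign. A further 25 that did not pass changed sign in at least 1 alternative. Of 106 differences past the threshold among the listed pathway genes, 84 passed in every alternative. With 1 array left out, the members called numbered 6 to 9 in the CMP comparison, 7 to 9 in GMP over MEP, 0 to 3 in CD27+ CMP over GMP, 0 in CD27- CMP over MEP, 6 to 11 in CD27+ CMP over MEP, 6 to 8 in CD27- CMP over GMP and 0 to 1 in the difference of differences. In the same order of comparisons those fits called 5180 to 8392, 5326 to 7466, 898 to 1423, 17 to 161, 5817 to 8751, 5079 to 7892 and 302 to 539 of all probe sets.

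Array weights, which gave MEP replicate 2 a weight of 11.1 and CD27- CMP replicate 3 one of 0.184, called 13 members in GMP over MEP, 5 in CD27+ CMP over GMP, 1 in CD27- CMP over MEP and 2 in the difference of differences. Over all probe sets they called 13737 in the CMP comparison (33.2% higher, against 54.1% of the calls reported), 17650 in GMP over MEP (30.4% against 50.9%), 2533 in CD27+ CMP over GMP, 3820 in CD27- CMP over MEP (42.1% against 25%), 27715 in CD27+ CMP over MEP (20.8% against 47.9%), 12428 in CD27- CMP over GMP (61.3% against 44.4%) and 1627 in the difference of differences. With 1 probe set a gene, adjusted over genes, 5 members and 4071 genes passed in the CMP comparison, 4 and 4127 in GMP over MEP, 1 member in CD27+ CMP over GMP, 6 genes in CD27- CMP over MEP, 7 and 4446 in CD27+ CMP over MEP and 4051 genes in CD27- CMP over GMP. With the CD27+ CMP and GMP arrays numbered 2 left out, a setting chosen after seeing the data, 1 member and 835 probe sets passed in CD27+ CMP over GMP, 13 probe sets in CD27- CMP over MEP and 0 members in the difference of differences. With only the arrays compared, 1 member and 600 probe sets passed in CD27+ CMP over GMP and 0 probe sets in CD27- CMP over MEP. With arrays centred on their median, 0 members passed in the difference of differences, and with the range filter 52% of the calls in CD27- CMP over MEP were higher. Fewer features or arrays were tested in some of these fits, and the cause was otherwise not tested.

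With the replicate number as a block in the fit of all arrays, 8 members and 6535 probe sets passed in the CMP comparison, 8 and 6858 in GMP over MEP, 3 and 1356 in CD27+ CMP over GMP, 0 and 18 in CD27- CMP over MEP, 8 and 7532 in CD27+ CMP over MEP, 8 and 6512 in CD27- CMP over GMP, and 1 and 457 in the difference of differences. Without the block these were 9 and 6369, 8 and 6671, 3 and 1368, 0 and 20, 11 and 7210, 8 and 6393, and 1 and 494. In GMP over MEP and CD27+ CMP over GMP, where all 3 same-numbered pairs exceeded 0.1, the block changed no member call. There it ended no call of a listed gene other than that of Bcl2. For CD27+ CMP with MEP the same-numbered arrays correlated at 0.402, 0.092 and 0.198. In that comparison the block took the members called from 11 to 8, with 7 higher and 1 lower. In the pairs of populations that include CD27- CMP the correlations ran from -0.328 to 0.138. Absolute signal was lost in the centring, so whether flat probe sets were detected cannot be said.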
